A study of Mus musculus with 8 samples.

Results

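The muscarinic and nicotinic acetylcholine receptors were described in hippocampal RNA-seq of female mice. The group was set by name and held 10 genes, the muscarinic receptors Chrm1, Chrm2, Chrm3, Chrm4 and Chrm5 and the nicotinic subunits Chrna3, Chrna4, Chrna5, Chrna7 and Chrnb2. All 10 were found among the 29442 genes listed and among the 27612 tested. Polyadenylated RNA was sequenced from the ventral hippocampus of C57BL/6 J mice that were 6 to 8 weeks old when used. By their label, the 4 DHEA libraries (HipR3, HipR4, HipR7 and HipR11) came from mice given dehydroepiandrosterone, a steroid precursor of androgens and oestrogens. It was given under the skin at 30 mg/kg/day for 21 days. By their label, the 4 Sesame Oil libraries (HipR5, HipR10, HipR16 and HipR9) came from mice given that oil, the vehicle, alone. The study's own table runs against these labels, as described below. None of the groups carried a transgene or deletion, and the comparison asks whether chronic DHEA was accompanied by a different receptor mRNA level. The methods describe tissue taken mouse by mouse after behavioural tests, with 4 per group, while the deposited labels name no animal and the deposited design text counts 6 tissues for the 8 libraries. The p-values therefore measure the spread between these libraries, whose independence as animals was not tested.

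Acetylcholine reaches the hippocampus mainly from axons of the medial septum and diagonal band. Muscarinic receptors are G protein-coupled receptors, of which M1, M3 and M5 couple to Gq and phospholipase C, while M2 and M4 couple to Gi and lower cAMP. Nicotinic receptors are cation channels of 5 subunits, and the alpha7 homomer and the alpha4beta2 heteromer are the main forms of the brain. In the hippocampus M1 is best known from pyramidal cells, and M2 and M4 also sit on axon terminals and curb transmitter release.

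Total counts ran from 35748416 to 38038361 under the DHEA label and from 31483772 to 35418297 under the Sesame Oil label, so that each of the former was deeper than each of the latter. In the table of differentially expressed genes supplied with the study, 167 of 167 genes have the opposite direction to the one the deposited labels give. None of the receptors and none of the pathway genes below is in that table (0 genes), and directions here are those of the labels. Which of the 2 is right was not tested, and if the labels were exchanged every direction given below would turn. The groups also stood apart in base composition. The correlation of each gene's deviation from its mean with its GC content was taken across genes. It ran from -0.113 to -0.00445 in the DHEA libraries and from 0.0558 to 0.136 in the Sesame Oil libraries. Mitochondrial genes took 7.29% to 9.34% and 6.37% to 7.23% of the counts.

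None of the 10 receptor genes differed between the groups in edgeR's quasi-likelihood test. An unadjusted p under 0.05 was found for 0 of 10 receptors, against 9.31% of all genes tested (4.82% with a higher and 4.49% with a lower level under the DHEA label). No receptor passed the thresholds of the methods, an unadjusted p under 0.05 with a change of at least 2-fold, which 1.6% of genes did. No gene of the table passed an adjusted p of 0.05 with this test (0 of 27612, 0%), whereas DESeq2 called 154, with 0 of the 8 receptors to which it gave an adjusted p. It gave none for Chrm5 and Chrna3. The smallest p among the receptors was 0.074, for Chrna4, with an adjusted p of 0.579. The normalized counts of the groups overlapped for all 10 receptors, while 5.04% of genes did not overlap. Fold changes lay below 0 for 8 of 10 receptors, against 48.8% of all genes, with a median log2 fold change of -0.12 for the receptors and 0.01 for all genes. For the 12780 genes averaging 100 counts or more per library, the median was 0.01, and the median size of a log2 fold change was 0.1. Of those genes, 15.7% had an unadjusted edgeR p under 0.05, and the groups did not overlap for 8.46%.

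Levels were compared between genes on the FPKM scale, counts scaled by library total and by gene length. Chrm1 was the most abundant receptor mRNA at 31.1 ± 1.97 FPKM (SD, n = 8 libraries), above 93.7% of the genes tested, and its lowest library (28.1) exceeded the highest of every other receptor. Chrm3 (11.2 ± 0.821) and Chrna7 (10.6 ± 0.882) followed and could not be ranked, since Chrm3 was higher in 5 of 8 libraries. Chrnb2 had 8.86 ± 0.552 FPKM and was below Chrna7 in 8 of 8 libraries. That order rests on the scaling by gene length, since the mean count was 1782 for Chrnb2 and 775.5 for Chrna7. Exons of Chrnb2 also overlap those of another gene, described below, which leaves its counts and its place in this order uncertain. Next came Chrm4 at 4.4 ± 0.763 and Chrna4 at 3.69 ± 0.542. Although their ranges overlapped, Chrm4 was the higher in each of the 8 libraries. Chrm2 (1.68 ± 0.332), Chrm5 (1.28 ± 0.3) and Chrna5 (0.923 ± 0.182) formed a lower tier with overlapping neighbours, in which Chrm2 exceeded Chrm5 in 6 of 8 libraries and Chrm5 exceeded Chrna5 in 7 of 8. Chrna3 was lowest at 0.0727 ± 0.0558 FPKM, with 3 to 26 counts per library. The group means had the same order under either label.

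**Figure D1:**
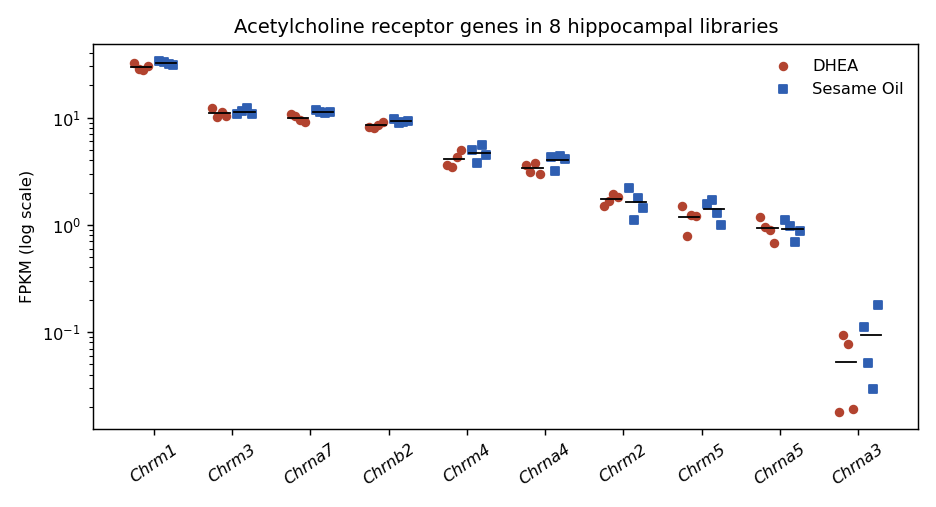
FPKM (log axis) of the 10 receptor genes in each library, with circles for the 4 libraries labelled DHEA, squares for the 4 labelled Sesame Oil and a line at each group mean. Chrm1 lies above all others, from 28.1 to 33.4 FPKM, Chrna3 lies below all others, and the points of the groups intermingle or touch for most genes.

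The composition of the muscarinic family differed little between libraries. Chrm1 made up 62.4% ± 1.72 of the summed FPKM of the 5 muscarinic genes in the libraries labelled DHEA and 62.9% ± 1.96 in those labelled Sesame Oil (SD, n = 4 each). Chrm3 supplied 20.4% to 24.1% over the 8 libraries, Chrm4 7.13% to 10.6%, Chrm2 2.16% to 4.14% and Chrm5 1.76% to 3.33%. The Gq-coupled receptors M1 and M3 were thus the bulk of muscarinic mRNA in every library. Of the summed FPKM of the 14 nicotinic genes in the table, Chrna7 supplied 39.5% to 44.6%, Chrnb2 33.1% to 39.5% and Chrna4 12.6% to 16.7%. Chrnb2 mRNA exceeded Chrna4 mRNA by 2.11- to 3.01-fold per length. Summed nicotinic FPKM ran from 22.9 to 24.9 under the DHEA label and from 25.3 to 28 under the Sesame Oil label, with no overlap. The TMM-normalized counts, scaled to a common library total (CPM), of the 5 nicotinic receptor genes, summed, did overlap, at 91.9 to 100 and 98.4 to 111. Summed muscarinic FPKM overlapped as well, at 44.5 to 51.1 and 49 to 53.

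Chrm1 encodes the M1 receptor. In the libraries labelled DHEA it had 208 CPM in HipR3, 185 in HipR4, 176 in HipR7 and 190 in HipR11, and in those labelled Sesame Oil 208 in HipR5, 206 in HipR10, 200 in HipR16 and 193 in HipR9. HipR3 reached the top of the Sesame Oil range while HipR4, HipR7 and HipR11 lay below it. The log2 fold change was -0.09 (SE 0.06, 95% interval -0.22 to 0.04), with an edgeR p of 0.166 and an adjusted p of 0.653. The interval holds changes from -14.2% to 2.88%, so a change of 2-fold was outside it. The value depended on single libraries, with -0.14 (unadjusted p of 0.0438) without HipR3 and -0.05 (unadjusted p of 0.4) without HipR7.

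Chrm3 encodes the M3 receptor, also coupled to Gq. It had 57.1, 47.9, 51.5 and 47.3 CPM in HipR3, HipR4, HipR7 and HipR11, and 49, 52.8, 57 and 48.5 CPM in HipR5, HipR10, HipR16 and HipR9. The groups covered almost the same range, and the log2 fold change was -0.03 (SE 0.08, edgeR p = 0.751, adjusted p = 0.927, exact permutation p = 0.714). Its sign turned to 0.01 without HipR11 and to 0.02 without HipR16. Chrm5, the M5 receptor, was scarce. It had 4.52, 2.38, 3.63 and 3.53 CPM in the libraries labelled DHEA, and 4.53, 4.99, 3.84 and 2.91 CPM in those labelled Sesame Oil, in the same order. The spread within either group was as wide as the gap between them (log2 fold change -0.21, SE 0.22, edgeR p = 0.347, adjusted p = 0.701, exact permutation p = 0.4). Leaving out 1 library gave log2 fold changes of Chrm5 from -0.35 (without HipR3) to -0.07 (without HipR4), with -0.34 without HipR9 and -0.09 without HipR10.

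Of the Gi-coupled receptors, Chrm4 had 13.8, 13.2, 15.8 and 18.4 CPM in HipR3, HipR4, HipR7 and HipR11, and 18.3, 13.7, 20.6 and 16.1 CPM in HipR5, HipR10, HipR16 and HipR9. The groups overlapped along most of their range, with a log2 fold change of -0.17 (SE 0.13, edgeR p = 0.209, adjusted p = 0.666, exact permutation p = 0.314). Leaving out 1 library gave from -0.27 (without HipR11) to -0.08 (without HipR16), with -0.26 without HipR10 and -0.11 without HipR4. Chrm2, whose product is the presynaptic M2 receptor, had 9.75, 11.1, 12.1 and 11.4 CPM in the libraries labelled DHEA, and 13.8, 6.98, 11.2 and 9.01 CPM in those labelled Sesame Oil. The libraries labelled Sesame Oil held both the highest and the lowest value of the 8. The log2 fold change of Chrm2 was 0.11 (SE 0.16, edgeR p = 0.498, adjusted p = 0.81, exact permutation p = 0.6), and it ran from -0.03 without HipR10 to 0.29 without HipR5. For Chrm2 and Chrm4 the SD of log2 CPM within groups was 0.3 and 0.23, where the median gene of like abundance had 0.16 and 0.13.

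Among the nicotinic subunits, Chrna7 encodes alpha7, which forms a homomeric, calcium-permeable channel. It had 23.1, 22.5, 19.8 and 18.9 CPM in HipR3, HipR4, HipR7 and HipR11, and 24.2, 23.3, 23.1 and 23 CPM in HipR5, HipR10, HipR16 and HipR9. The libraries labelled Sesame Oil lay close together (mean 23.4, SD 0.526), and of those labelled DHEA only HipR3 reached them. The log2 fold change was -0.15 (SE 0.09, 95% interval -0.34 to 0.03, or -20.8% to 2.46%), with an edgeR p of 0.105, an adjusted p of 0.608 and a two-sided exact permutation p of 0.0571. The smallest p that 4 libraries against 4 allow is 0.0286. RLE scaling, that of DESeq2, gave Chrna7 an unadjusted p of 0.0899. With the GC trend of each library removed its unadjusted p was 0.033 (log2 fold change -0.2, adjusted p = 0.552), and with limma on log2(FPKM + 1), which changes test and scale together, it was 0.0126 (adjusted p = 0.424). Its groups did not overlap in CPM by total counts or by RLE, for which the share of all genes is not given here. Without HipR11 the log2 fold change was -0.1 (unadjusted p of 0.274).

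Chrna4 encodes alpha4, which with beta2 forms the high-affinity nicotine site of the brain. It had 20.3, 17.8, 20.8 and 16.4 CPM in the libraries labelled DHEA, and 23.5, 17.4, 24 and 22.2 CPM in those labelled Sesame Oil. HipR10 stood below the other Sesame Oil libraries, inside the DHEA range. The log2 fold change was -0.21 (SE 0.11, 95% interval -0.44 to 0.02, edgeR p = 0.074, adjusted p = 0.579, exact permutation p = 0.171). Without HipR10 the unadjusted p was 0.0114 with a log2 fold change of -0.3 and an adjusted p of 0.575, and without HipR7 it was 0.0381 with an adjusted p of 0.335. Without HipR11 the log2 fold change was -0.15 (unadjusted p of 0.204), and without HipR5 or HipR16 it was -0.17. Chrnb2, the beta2 subunit, had 48.8, 47.6, 49.3 and 51.9 CPM in HipR3, HipR4, HipR7 and HipR11, and 55.1, 50.8, 53 and 52.5 CPM in HipR5, HipR10, HipR16 and HipR9. Only HipR11 and HipR10 crossed. Its log2 fold change was -0.1 (SE 0.06, 95% interval -0.23 to 0.04, edgeR p = 0.148, adjusted p = 0.645, exact permutation p = 0.0571), and with limma on log2(FPKM + 1) its unadjusted p was 0.0401. The within-group SD of log2 CPM was 0.05 for Chrnb2, against a median of 0.1 for genes of like abundance.

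In the mouse annotation GENCODE vM21, 1365 exon bases of Chrnb2 are shared with Adar, an RNA-editing enzyme gene on the opposite strand. Adar had 164, 152, 167 and 167 CPM in HipR3, HipR4, HipR7 and HipR11, and 185, 171, 189 and 179 CPM in HipR5, HipR10, HipR16 and HipR9. Those groups did not overlap (log2 fold change -0.16, SE 0.06, edgeR p = 0.0179, adjusted p = 0.421, exact permutation p = 0.0286). Because the strand setting of the counting is not given in the sources used here, the counts of Chrnb2 are uncertain where the genes overlap. The part of Adar reads in them, or of reads lost from them, was not tested. The FPKM of Chrnb2, its order beside Chrna7 and the nicotinic shares and ratios carry the same uncertainty. Chrm2 shares 142 exon bases with 9330158H04Rik, which had at most 0.356 CPM, and Chrm1 shares 329 with Gm22820, not analysed here.

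Chrna5, an accessory subunit, had 8.26, 6.76, 6.02 and 4.52 CPM in the libraries labelled DHEA, and 7.55, 6.59, 4.73 and 5.84 CPM in those labelled Sesame Oil. The ranges coincided (log2 fold change 0.05, SE 0.18, with an edgeR p of 0.794 and an adjusted p of 0.944), and the sign turned without HipR3 (-0.1) or HipR16 (-0.07). Chrna3, known mainly from the habenula and autonomic ganglia, had 3, 15, 12 and 3 counts in HipR3, HipR4, HipR7 and HipR11, and 16, 8, 4 and 26 counts in HipR5, HipR10, HipR16 and HipR9. Leaving out 1 library gave Chrna3 log2 fold changes from -1.28 (without HipR4) to -0.28 (without HipR9), with -0.52 without HipR3 and -0.53 without HipR11. The 95% interval of its log2 fold change ran from -2.17 to 0.56 (edgeR p = 0.233, adjusted p = 0.666, exact permutation p = 0.4). For Chrna3 the SD of log2 CPM within groups was 0.4, where the median gene of like abundance had 0.27.

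**Figure D2:**
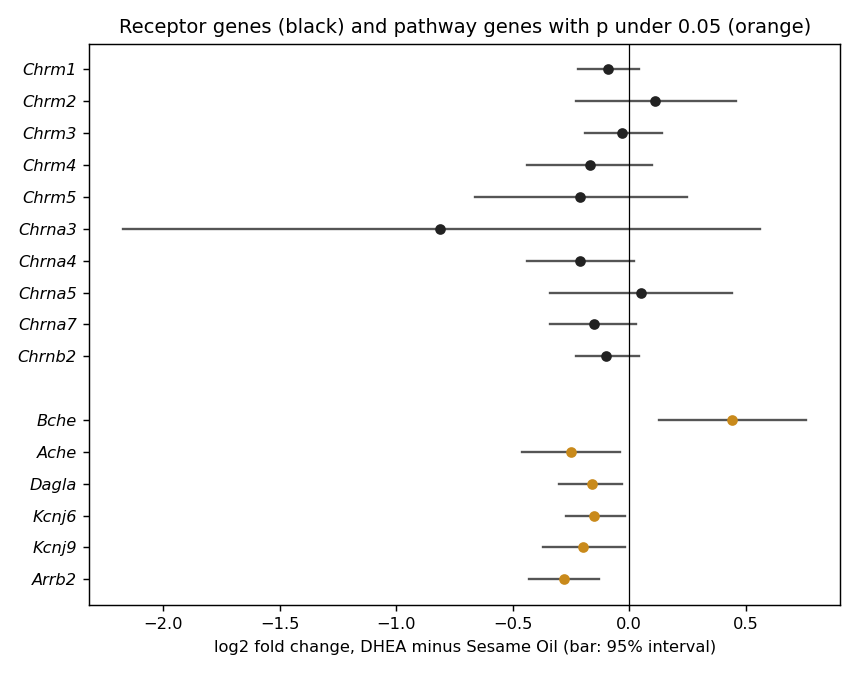
Log2 fold change, DHEA minus Sesame Oil, with its 95% interval from edgeR for the 10 receptor genes (black) and 6 pathway genes with an unadjusted p under 0.05 (orange). All 10 receptor intervals include 0, and of the orange genes Bche lies above 0 and the other 5 below.

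The remaining nicotinic genes had low levels. Of 11 looked for, 9 were in the table, and 0 had an unadjusted p under 0.05. Chrna1 (0.253 ± 0.0666 FPKM) and Chrnb1 (0.349 ± 0.12), subunits of the muscle receptor, Chrnb3 (0.102 ± 0.0537) and Chrnb4 (0.116 ± 0.0686) had a mean count of at least 10 (SD, n = 8). Chrna2, Chrna6, Chrna9, Chrna10 and Chrne were below it. Chrnb1 and Chrnb4, chosen after their values were seen, varied widely. Chrnb4 had 35, 3, 15 and 19 counts in HipR3, HipR4, HipR7 and HipR11, and 24, 21, 12 and 5 counts in HipR5, HipR10, HipR16 and HipR9. The summed CPM of 7 choroid plexus markers was 4510, 96, 2230 and 4180, and 3150, 2050, 2280 and 516 in the same order. HipR4 and HipR9 were thus lowest for the markers and for Chrnb4 and Chrnb1 alike. Over the 8 libraries Pearson's r with the summed markers, on the log2(CPM + 0.5) scale, was 0.885 for Chrnb4, 0.937 for Chrnb1 and 0.832 for Chrm5, which was also lowest in HipR4 and HipR9. These were picked after their values were seen from the correlations of 14 receptor genes with 13 marker lists. Those of Chrnb1 and Chrnb4 were the largest in size. Others were larger in size than that of Chrm5, such as -0.877 for Chrm1 with cholinergic neuron markers, which had few counts, and -0.869 for Chrnb2 with microglial markers. So were 0.837 for Chrm4 with neocortical and -0.834 for Chrm5 with astrocyte markers. All these correlations describe 8 libraries that share depth and base composition by label. The most abundant of the markers was Ttr, the transthyretin gene, and none of the 7 was at 0 in any library. The part of choroid plexus tissue in the Chrnb1, Chrnb4 and Chrm5 levels was not tested.

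**Figure D3:**
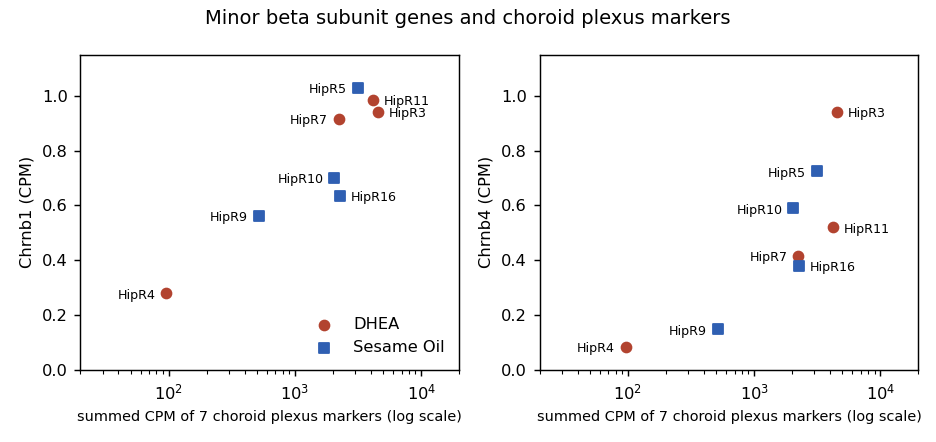
CPM of Chrnb1 (left) and Chrnb4 (right) against the summed CPM of 7 choroid plexus markers (log axis), 1 point per library, with circles for DHEA and squares for Sesame Oil. HipR4 with 96 and HipR9 with 516 summed CPM have the lowest values of either gene, and libraries of both labels lie along the same trend.

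The cholinesterases, which end the signal, both had an unadjusted p under 0.05, in opposite directions. Bche encodes butyrylcholinesterase and Ache acetylcholinesterase. Bche had 15, 11, 10.9 and 8.59 CPM in HipR3, HipR4, HipR7 and HipR11, and 7.97, 7.37, 9.68 and 8.39 CPM in HipR5, HipR10, HipR16 and HipR9. Only HipR11 and HipR16 crossed. Bche was higher in the libraries labelled DHEA, at 11.4 ± 2.65 against 8.35 ± 0.978 CPM (log2 fold change 0.44, SE 0.15, edgeR p = 0.009, adjusted p = 0.364, exact permutation p = 0.0571). Without HipR3, which was the highest, the unadjusted p was 0.0634 with a log2 fold change of 0.28. With limma Bche also missed the threshold, at 0.24 (unadjusted p of 0.0618) on log2(FPKM + 1) and 0.37 (unadjusted p of 0.0519) on log2(FPKM + 0.1). Ache had 25.1, 23.3, 33 and 30.2 CPM in the libraries labelled DHEA, and 32.4, 32.5, 31.4 and 36.4 CPM in those labelled Sesame Oil. HipR7 alone of the former reached the latter. Ache was lower in the libraries labelled DHEA (log2 fold change -0.25, SE 0.1, edgeR p = 0.0227, adjusted p = 0.452, exact permutation p = 0.114), and it missed the threshold without HipR3 (log2 fold change -0.2, unadjusted p of 0.0665), without HipR4 (-0.18, unadjusted p of 0.071), without HipR9 (-0.2, unadjusted p of 0.0823) and with limma on log2(FPKM + 1) (-0.25, unadjusted p of 0.0506). The FPKM ratio of Ache to Bche ran from 2.34 to 4.89 in the DHEA libraries and from 4.51 to 6.15 in the Sesame Oil libraries.

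The other genes of acetylcholine synthesis and transport were barely present. Chat, the synthesizing enzyme, had a mean count of 2.75 and Slc18a3, the vesicular transporter, of 3. Slc5a7, the choline transporter of cholinergic terminals, had 1.16, 0.954, 1.03 and 0.931 CPM in the libraries labelled DHEA, and 0.634, 0.561, 0.92 and 0.771 CPM in those labelled Sesame Oil. Its groups did not overlap, with an exact permutation p of 0.0286, the smallest possible, but edgeR gave a p of 0.142 (adjusted p = 0.645) at a mean count of 30.5. Slc5a7 was named after its values were seen. Of the 7 genes of this list, 1 was higher and 1 lower at an unadjusted p under 0.05, against 9.31% of all genes tested. The median log2 fold change of the list, 0.4 against 0.01 for all genes, is that of Colq, a collagen-like anchor of acetylcholinesterase with a mean count of 6.125 and an interval of -0.93 to 1.73, so it rests on genes with few counts. Besides Ache, at 6.78 ± 1.06 FPKM, the most abundant gene of the list was Prima1, the membrane anchor of acetylcholinesterase, at 1.83 ± 0.214 FPKM (adjusted p = 0.666 with edgeR). Of the 11 genes for the assembly of nicotinic receptors and their Ly6 modulators, none had an unadjusted p under 0.05 (0 of 11). Their most abundant were Vsnl1, a neuronal calcium sensor, at 264 ± 22.4 FPKM, and Lynx1, a membrane-bound brake on nicotinic receptors, at 84.4 ± 2.97 FPKM.

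Downstream of the muscarinic receptors, 3 of the 13 Gq pathway genes and 2 of the 14 Gi pathway genes were lower in the libraries labelled DHEA at an unadjusted p under 0.05, and none was higher (0). These shares stand beside 15.7% of the genes averaging 100 counts or more that passed in either direction. The medians of these lists were both 0.02. In the Gq list Dagla, which makes the endocannabinoid 2-arachidonoylglycerol, had 117 ± 7.12 against 131 ± 5.84 CPM (log2 fold change -0.16, edgeR p = 0.0179, adjusted p = 0.42, exact permutation p = 0.0286), and its groups did not overlap. Without HipR10 the Gq list held 0 such genes and without HipR5 it held 1. Dagla lost the threshold without HipR10 (log2 fold change -0.14) and with the GC trend removed (-0.12). In the Gi list Kcnj6 and Kcnj9 encode subunits of the potassium channels that Gi proteins open. Kcnj6 had 216, 207, 226 and 234 CPM in the libraries labelled DHEA, and 240, 263, 238 and 238 CPM in those labelled Sesame Oil, without overlap (log2 fold change -0.15, edgeR p = 0.0259, adjusted p = 0.467, exact permutation p = 0.0286). Kcnj9 had 87.4 ± 7.23 against 100 ± 12 CPM (log2 fold change -0.2, edgeR p = 0.0278, adjusted p = 0.477, exact permutation p = 0.114). Without HipR3 or without HipR4 the Gi list held 0 such genes, without HipR10 it held 1 (Kcnj6 then had a log2 fold change of -0.11), and without HipR7 it held 4. Kcnj9 also lost the threshold without HipR16 (log2 fold change -0.12), with the GC trend removed (-0.16) and with limma on log2(FPKM + 1) (-0.21).

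Abundant genes of these lists that did not pass were Prkcb at 108 ± 5.31 FPKM (adjusted p = 0.937 with edgeR), the G protein subunit gene Gnb1 at 178 ± 7.52 (adjusted p = 0.666) and the adenylyl cyclase gene Adcy1 at 90.3 ± 7.75 (adjusted p = 0.757). Of the 6 receptor kinases and arrestins, 1 was lower, a share close to those 15.7%. Arrb2, beta-arrestin 2, which uncouples and internalizes receptors, had 34.1, 32.5, 37.2 and 36.9 CPM in HipR3, HipR4, HipR7 and HipR11, and 44, 42.1, 43 and 42 CPM in HipR5, HipR10, HipR16 and HipR9. Every library labelled DHEA was below every library labelled Sesame Oil. The log2 fold change was -0.28 (SE 0.07, 95% interval -0.43 to -0.13), with an edgeR p of 0.000929, an adjusted p of 0.245 and an exact permutation p of 0.0286. Arrb2 kept an unadjusted p under 0.05 in 17 of 17 alternatives, with adjusted p-values from 0.0191 with DESeq2 to 0.727. Grk2, at 47 ± 1.83 FPKM, and Arrb1, at 34.9 ± 2.11, did not differ (adjusted p of 0.963 and 0.691 with edgeR).

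**Figure D4:**
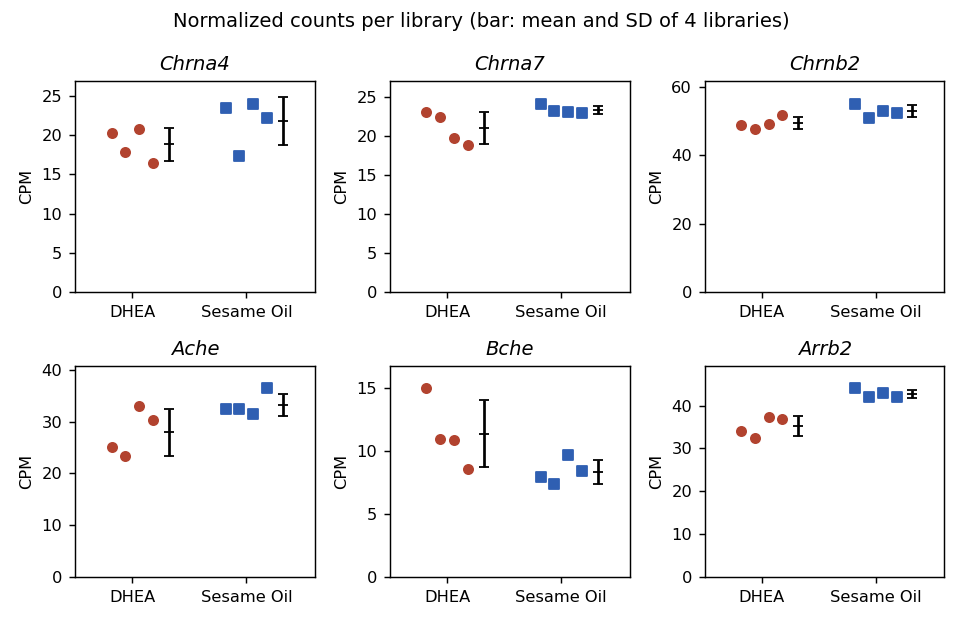
CPM per library for Chrna4, Chrna7, Chrnb2, Ache, Bche and Arrb2, with circles for the 4 libraries labelled DHEA, squares for the 4 labelled Sesame Oil, and bars for the mean and SD of each group. Axes start at 0. Arrb2 is separated, with at most 37.2 CPM against at least 42, while each of the others has at least 1 library of one label within the range of the other.

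Over all 51 pathway genes outside the receptor family, 1 was higher and 7 were lower at an unadjusted p under 0.05, and none had an adjusted p under 0.05 with edgeR (0 of 51), while DESeq2 gave Arrb2 an adjusted p of 0.0191. Their median log2 fold change was 0.03, and 32 of the 51 lay above 0. The share of 8 of 51 stands beside 15.7% of the genes that averaged 100 counts or more.

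Marker counts are read against the 15.7% of genes averaging 100 counts or more, and 9.31% of all genes, that had an unadjusted p under 0.05. All 8 of 8 myelin markers were higher in the libraries labelled DHEA at an unadjusted p under 0.05, with most counts from Mbp, the gene of myelin basic protein. Summed, they had 6680, 8430, 6610 and 6940 CPM in HipR3, HipR4, HipR7 and HipR11, and 5340, 5300, 4500 and 6400 CPM in HipR5, HipR10, HipR16 and HipR9, without overlap. Of the 6 astrocyte markers 4 were higher, and summed they had 5950 to 7100 against 5250 to 6050 CPM, mostly from Slc1a2, the glutamate transporter. None of these markers was at 0 in any library. Their part in the receptor values was not tested, and in bulk tissue fewer cells of a type and less RNA per cell cannot be told apart. Of 7 markers of hippocampal fields 2 were higher and none lower (0), Spink8 and Bok. Habenula markers, relevant to Chrna3 and Chrnb4, summed to 42.6 to 53.4 against 48.8 to 60.1 CPM, and 0 of 5 passed. Most of that sum was Nwd2, at 34.5 to 49.6 CPM over all libraries. Tac1 had at most 8.78 CPM, Tac2 2.38, Gpr151 0.985 and Pou4f1 0.0821. At the same threshold 2 of 5 endothelial and 2 of 5 microglial markers were higher, 1 of 5 neocortical markers (Fezf2) was lower, and of 6 thalamic markers 1 was higher and 1 lower. None passed among the markers of striatum (0 of 6), interneurons (0 of 8), choroid plexus (0 of 7) and skeletal muscle (0 of 4). Among the cholinergic neuron markers 0 of 6 passed, and their sum was 0.645 to 2.64 CPM over all libraries. Most of that sum was Slc5a7 and Isl1. Isl1 was uneven, with 39 counts in HipR4, 42 in HipR7 and 25 in HipR9, and 6 or fewer in each of the others.

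The receptors did not move as one across libraries. Over the 36 pairs of the 9 receptors averaging 100 counts or more, Pearson's r of log2(CPM + 0.5) over the 8 libraries ran from -0.646 for Chrm4 and Chrna5 to 0.795 for Chrm4 and Chrnb2. Chrm1 and Chrna7 had an r of 0.705. Against the 12779 other genes of that abundance, the closest to Chrm1 were Dcaf1 (r = 0.956), Rsph3b (0.954) and Bcl7a (0.947). Chrna7 was most like Nolc1 (0.978), Smarce1 (0.971) and Fam110a (0.965), and Chrnb2 was most like Ccar1 (0.979), Taok2 (0.976) and Zbtb40 (0.967). The number of genes with r over 0.9 was 105 for Chrnb2, 65 for Chrna7 and 27 for Chrm1, against 7 for Chrm3 and 8 for Chrm2. For Chrm2 the closest were Jup (0.938), Bmper (0.938) and Arap3 (0.931), and for Chrm3 they were Cdipt (0.953), Scly (0.938) and 2610035D17Rik (0.938). For Chrm4 they were Rapgef1 (0.951), Cit (0.948) and Ccdc22 (0.946), and for Chrm5 Thap4 (0.967), Cpne2 (0.967) and Smg6 (0.951). The genes most like Chrna4 were Gpr19 (0.955), Smarcc1 (0.951) and Cdh22 (0.939), and those most like Chrna5 were St6galnac5 (0.958), Chac1 (0.956) and Grm5 (0.955). With 8 libraries that share depth and base composition by label, these values are a description.

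DHEA can be converted to ligands of the androgen receptor, so the promoters of the receptor genes were searched for the letters it is known to bind. RefSeq promoters of GRCm38.p6, taken as the 250 bases before the start, were matched for 9 of 10 receptors, with 10 starts. Neither strand of any start held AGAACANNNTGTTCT (0 of 10), which 3 of all 32851 promoters hold. The shorter element inside it, AGAACA or TGTTCT on the other strand, was in 1 start, that of Chrm5, against 16.1% of all promoters. The GC box GGGCGG, or CCGCCC on the other strand, was in 6 starts, against 32.7% of all promoters. These are matches of letters and not binding sites. Shown are Chrm5, as the start with the shorter element, and Chrna4 and Chrna7, as the receptors with the smallest edgeR p, with matches in capitals. Chrm5 lies at chr2:112480818-112481067, Chrna4 at chr2:181039178-181039427 and Chrna7 at chr7:63212527-63212776, all on the minus strand.
Chrm5: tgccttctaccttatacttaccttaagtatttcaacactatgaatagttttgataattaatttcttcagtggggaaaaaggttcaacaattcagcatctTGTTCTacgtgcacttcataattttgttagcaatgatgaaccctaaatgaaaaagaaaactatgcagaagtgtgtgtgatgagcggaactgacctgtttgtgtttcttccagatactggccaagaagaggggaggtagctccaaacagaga
Chrna4: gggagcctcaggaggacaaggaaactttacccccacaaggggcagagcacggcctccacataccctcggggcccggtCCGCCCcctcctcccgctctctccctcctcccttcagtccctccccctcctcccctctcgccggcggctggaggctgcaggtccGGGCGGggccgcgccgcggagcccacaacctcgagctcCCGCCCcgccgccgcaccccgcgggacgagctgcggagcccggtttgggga
Chrna7: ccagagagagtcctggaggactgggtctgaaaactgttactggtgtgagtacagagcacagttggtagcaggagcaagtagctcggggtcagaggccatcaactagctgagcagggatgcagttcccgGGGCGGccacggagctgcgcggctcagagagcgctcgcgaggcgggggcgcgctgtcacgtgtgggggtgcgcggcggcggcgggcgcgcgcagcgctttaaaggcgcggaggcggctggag
The Chrm5 promoter holds 37.6% G and C, that of Chrna4 74.4% with 3 GC boxes, and that of Chrna7 67.2% with 1, where the median promoter has 52.4%. At least 3 GC boxes were in 7.69% of all promoters.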

How the data were processed

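The authors deposited raw counts per gene and FPKM values for the 8 libraries. Per the labels and the methods, reads were trimmed with fastp, aligned with HISAT2 to GRCm39 and counted with HTSeq. Versions and the strand setting are not given in the sources used here. The deposited FPKM divide the counts by library total and 1 length per gene.

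TMM normalization and the quasi-likelihood test of edgeR 4.0.16 (R 4.3.3) were applied to the counts of 27612 genes, each with 1 count or more (prior count 0.125), with Benjamini-Hochberg adjustment over all of them. The methods name DESeq2 with an unadjusted p under 0.05 and a change of at least 2-fold, and DESeq2 1.42.0 was run as an alternative, as were limma 3.58.1 on FPKM, RLE scaling, count filters, robust moderation, removal of each library's GC trend and leaving out each library. For single genes an exact permutation test (two-sided, 70 allocations) was added. Total counts make 3 counts worth 0.0808 to 0.0952 CPM, a floor that covers counting error only. GC content came from GENCODE vM21 for 92.7% of genes averaging 10 counts or more. Groups came from the labels, and the labels give no replicate numbers that pair libraries.

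Members and gene lists were chosen with earlier results of these data known. Named were all members, the remaining family with a mean count of at least 10, in each pathway list up to 4 genes with an unadjusted p under 0.05 and the 2 with the highest mean FPKM, and the 3 genes most like each member with a mean count of at least 100. Marker lists for striatum, neocortex, thalamus, interneurons, endothelium, microglia and skeletal muscle were also examined. The study's table of differentially expressed genes was used only to compare directions, and none of its values is given. A few genes that these rules select are not reported here.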

Additional observations from a re-analysis of the deposited data

Results flagged for a closer look

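The Kcnj6 level of HipR10, labelled Sesame Oil, stood apart at 263 CPM from the other Sesame Oil libraries, which had 238 to 240 CPM. The gap was 0.905 of the group's range, above Dixon's 95% critical value for 4 samples. Among 36 groups of values examined this was the 1 beyond it, where chance alone gives about 1.8. Without HipR10 the log2 fold change of Kcnj6 was -0.11 with an edgeR p of 0.113.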

How the results depend on the processing

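No receptor that was given an adjusted p had one under 0.05 in any alternative run (0), and DESeq2 gave none for Chrm5 and Chrna3. The number with an unadjusted p under 0.05, 0 as reported, was 3 with limma on log2(FPKM + 1) and 3 on log2(FPKM + 0.1), namely Chrm1, Chrna7 and Chrnb2, and 1 (Chrna7) with the GC trend removed, where 2604, 2605 and 2359 of all 27612 genes passed. It was 0 to 1 when each library was left out, with Chrm1 passing without HipR3 and Chrna4 without HipR7 or HipR10, where 1938, 3667 and 2041 of all genes passed. The number of receptors whose groups did not overlap was 1 with RLE scaling and 1 with CPM by total counts (Chrna7 in each case). It was 0 to 2 in the leave-outs, with Chrm1 and Chrna7 without HipR3, Chrna4 and Chrnb2 without HipR10, Chrnb2 without HipR11 and Chrna7 without HipR9. The share of all genes without overlap is given for the main run only (5.04%). With fewer libraries non-overlap is easier to reach, so the leave-out numbers cannot be set beside that share. The number of all genes with an adjusted p under 0.05 was 154 with DESeq2, 4 with robust moderation and 0 to 93 in the leave-outs, with 93 without HipR7 and 12 without HipR11. Fold changes turned sign for Chrm2 without HipR10 (-0.03), for Chrm3 without HipR11 (0.01) or HipR16 (0.02) and for Chrna5 without HipR3 (-0.1) or HipR16 (-0.07). The cause was not tested. Of 170 repeats of the receptors' fold changes, 155 kept direction and side of the threshold, 10 passed it and 5 turned. Of 136 for the 8 pathway genes with an unadjusted p under 0.05, 113 kept both and 23 lost the threshold, among them Bche without HipR3, and none turned. Scaling moved the median of all genes by at most -0.0079. No paired analysis was possible because the labels give the libraries no numbers shared between the groups. Chrna3 and the minor subunits had few counts, and the part of depth in the spread of their values was not tested.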
